A study of Mus musculus with 6 samples.

Results

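Nucleotide synthesis and salvage enzymes are the 40 listed genes whose products build, interconvert and recycle purines, pyrimidines and deoxynucleotides. They were matched by symbol among the 55401 entries of the gene table. Each was on 1 entry, and all 40 reached the minimum for testing, an average value of 10 across the libraries. They fall into 12 genes of purine synthesis, 5 of pyrimidine synthesis, 10 of deoxynucleotide (dNTP) supply and 13 of salvage.

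The samples were CD4+ T cells, the helper T lymphocytes, from the spleen of naive wild-type C57BL/6 mice, loaded with the division dye CFSE. Cells for 3 libraries were kept for 48 h in 5 mM itaconate, a dicarboxylic acid produced by inflammatory macrophages, and cells for the other 3 in 5 mM NaCl. Both groups also received anti-CD3 and anti-CD28 antibodies with 200 U IL-2, so the comparison is between stimulated cells, at 1 dose and 1 time. In the table the controls are headed NAC. This was taken to mean NaCl, the only control named by the labels. The code is unexplained and could mean N-acetylcysteine, so every control value rests on this reading. Whether each library is a separate mouse or culture is not stated, and the p-values therefore reflect the spread between these libraries, possibly a technical one, and nothing more.

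Purine rings are assembled step by step on phosphoribosyl pyrophosphate (PRPP) up to inosine monophosphate (IMP), which is then turned into AMP or GMP. Pyrimidine rings are made first, joined to PRPP as orotate, and become UMP and then CTP. Ribonucleotide reductase converts ribonucleotides to the deoxy forms needed for DNA, and salvage enzymes reuse free bases and nucleosides. Resting T cells rely largely on salvage and turn synthesis up when they are stimulated to divide.

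Estimated read totals per library were 20074299 to 22755248 with itaconate and 21015690 to 24144999 with NaCl. Summed levels of 9 T cell marker genes were 66617 to 67970.3 normalized estimated counts in the itaconate libraries and 58137 to 65939 in the NaCl libraries. Each of the 9, Cd4 and the CD3 genes among them, averaged at least 3704. They were not constant: 4 passed the test as higher with itaconate (Cd4, Cd3e, Lck and Zap70) and 2 as lower (Cd3g and Thy1). Of all tested genes, 18.2% were higher and 17.8% lower. The summed levels of 16 markers of other cells were 691 to 727 in the itaconate libraries and 615 to 744 in the NaCl libraries. Of these 16 genes, 9 had a mean under 10, among them the B cell marker Ms4a1, the macrophage markers Lyz2, Csf1r and Adgre1 and the NK cell marker Ncr1. The myeloid genes Itgam (39.3, 70.1 and 67.7 in the itaconate libraries, against 11.2, 7.03 and 24.5 in the NaCl libraries) and Cd68 (152, 96.7 and 82.1 in the itaconate libraries, against 40.8, 66.3 and 63.5 in the NaCl libraries) passed the test as higher with itaconate, and 5 other tested markers did not pass. Their part in the results below was not tested.

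Gene values below are normalized estimated counts, a relative measure within a library. With itaconate, 13 of the 40 enzyme genes rose, 6 fell and 21 did not pass the test (limma, Benjamini-Hochberg adjusted p under 0.05 over 13180 tested genes). The share that rose was 32.5%, where 18.2% of all tested genes rose, and the share that fell was 15.0%, where 17.8% of all tested genes fell. Taken in either direction, 47.5% of the enzyme genes passed, against a background of 36.0%. That background includes genes of lower level, whereas each of the 40 averaged at least 117. With the fit limited to the 10017 genes with a mean of at least 100, 42.2% of them passed. In that fit 15 of the enzyme genes rose and 6 fell. The median log2 fold change of the 40 genes was 0.21, and that of all tested genes was −0.00088. The rises were small, none reaching 2-fold, with 1.63-fold for Dck the highest. Falls of more than 2-fold were found for Ampd3, Rrm2b and Tk2. Without NaCl replicate 2, 8 of the enzyme genes rose and 4 fell, and the same counts were found without the variance trend of the fit, where Ppat, Gart, Impdh2, Gmps, Rrm2, Samhd1 and Tk1 lost their calls (adjusted p = 0.0509 to 0.123). These counts carry no test of the list, and a bulk measurement cannot tell fewer cells of a type from less RNA per cell.

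**Figure D1:**
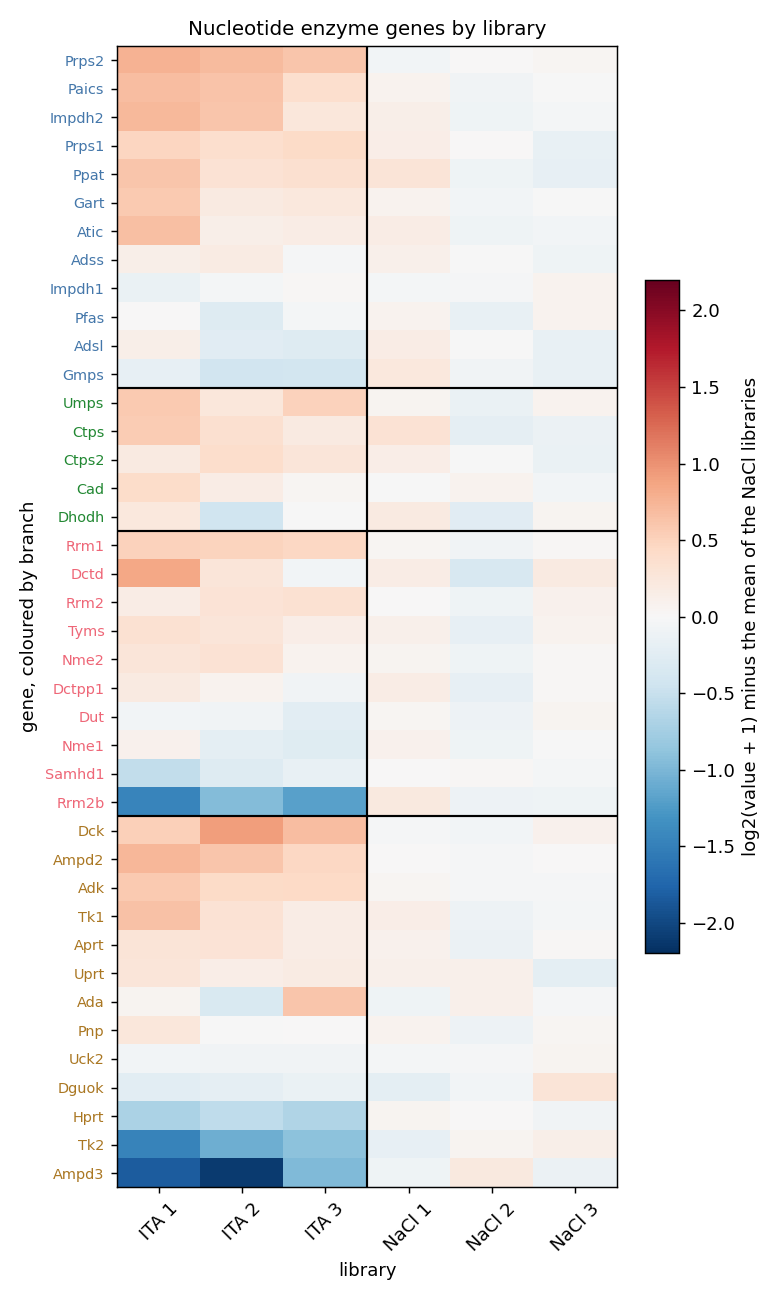
Level of each of the 40 enzyme genes in each library, as log2(value + 1) minus the mean of the NaCl libraries (red higher, blue lower). Rows are grouped by branch, with purine synthesis, pyrimidine synthesis, dNTP supply and salvage running down the page, and columns are the 3 itaconate and the 3 NaCl libraries. Ampd3, Tk2 and Rrm2b are the bluest rows in the itaconate libraries.

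All itaconate values exceeded all control values for 18 of the 40 genes and lay under all of them for 7, which makes 62.5%, where 48.4% of all tested genes had no overlap. By branch, the median log2 fold change was 0.32 for purine synthesis, 0.29 for pyrimidine synthesis, 0.14 for dNTP supply and 0.11 for salvage. The spread was wider in the last 2 branches, with log2 fold changes from −1.20 to 0.48 among dNTP genes and from −1.64 to 0.70 among salvage genes, against −0.34 to 0.69 in purine synthesis.

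**Figure D2:**
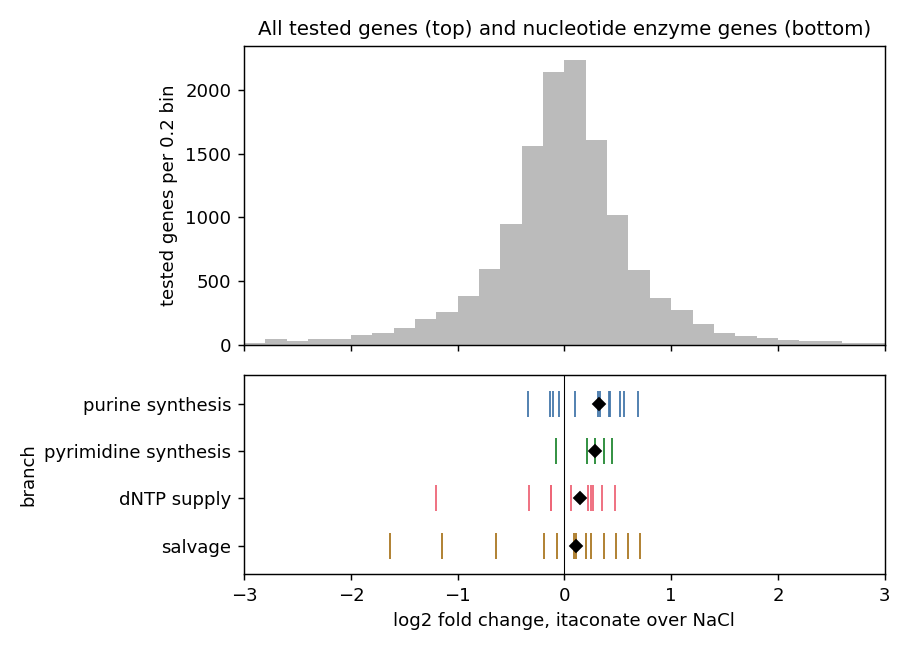
Log2 fold change of itaconate over NaCl, as the number of genes per 0.2 wide bin for the 13180 tested genes (grey bars, shown from −3 to 3) and as 1 tick per enzyme gene by branch, with a diamond at the branch median. The branch medians lie right of 0, and the 3 ticks below −1 belong to dNTP supply and salvage.

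Promoter sequence is shown for genes that rose and genes that fell, so that genes that moved together can be compared by their letters. RefSeq windows (build GRCm38.p6, from 250 bases before to 50 after the start) were matched for 37 of the 40 genes, all but Pfas, Dhodh and Rrm2b. The pentamer CCAAT, the letters recognised by the factor NF-Y, was found on either strand in 7 of 13 windows of genes that rose, in 0 of 5 of genes that fell and in 7 of 19 of the others. Of all 27025 promoter windows 37.7% hold it. The 100 bases before the start are given 5′ to 3′ on the gene's strand, with each CCAAT or its reverse complement ATTGG in capitals. The 4 genes with matches rose and are Rrm1 (chr7:102441595-102441694), Rrm2 (chr12:24708154-24708253), Prps1 (chrX:140456503-140456602) and Adk (chr14:21052474-21052573), and the 2 genes without fell and are Tk2 (chr8:104248559-104248658, minus strand) and Hprt (chrX:52987978-52988077).
Rrm1: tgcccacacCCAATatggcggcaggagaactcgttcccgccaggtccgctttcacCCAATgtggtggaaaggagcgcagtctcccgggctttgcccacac
Rrm2: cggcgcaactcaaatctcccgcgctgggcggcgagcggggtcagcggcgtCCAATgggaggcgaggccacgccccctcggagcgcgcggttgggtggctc
Prps1: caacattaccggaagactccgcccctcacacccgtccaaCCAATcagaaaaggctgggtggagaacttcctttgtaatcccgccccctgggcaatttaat
Adk: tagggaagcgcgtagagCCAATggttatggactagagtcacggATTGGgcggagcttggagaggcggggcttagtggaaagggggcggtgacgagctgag
Tk2: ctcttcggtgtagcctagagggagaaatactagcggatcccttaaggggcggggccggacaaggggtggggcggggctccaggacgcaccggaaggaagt
Hprt: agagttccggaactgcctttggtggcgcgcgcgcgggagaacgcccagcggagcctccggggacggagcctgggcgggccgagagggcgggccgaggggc
Rrm1 has 2 copies, at −91 and −45 (first base, counted back from −1 just before the start), and Rrm2 has 1 at −50. Other letters searched on both strands were the E2F octamers TTTCCCGC, TTTGGCGC, TTTCGCGC and TTTGCCGC and the E-box CACGTG. An E2F octamer was in 2 of 13 windows of genes that rose (Ppat and Prps2) and in 0 of the other 24, and 2.32% of all windows hold one. The E-box was in 2 of 13 windows of genes that rose, 1 of 5 of genes that fell and 3 of 19 of the others, with 7.23% of all windows. No searched motif contains another. A match says only that the letters are there, and these 6 genes were picked for display after their values were seen. Genes that rose without CCAAT, Ppat and Prps2 among them, are not displayed, so the display looks more clear-cut than the counts.

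Purine synthesis was the branch with most rises. Here 6 of 12 genes rose (50%, against 18.2% of all tested genes), 1 fell (8.33%, against 17.8%) and 5 did not pass. The genes that rose make PRPP and carry out early and middle steps of the ring, or open the way to GMP. The 1 that fell, Gmps, takes the final step to GMP. PRPP synthetase feeds both purine and pyrimidine rings, and both Prps1 and Prps2 rose. Prps2 had 1681, 1594 and 1504 in the itaconate libraries, against 944, 997 and 1016 in the NaCl libraries (log2 fold change 0.69 ± 0.096 SE, adjusted p = 1.58e-04). Prps1 had 2234, 2081 and 2156 in the itaconate libraries, against 1788, 1613 and 1443 in the NaCl libraries (log2 fold change 0.42 ± 0.099 SE, adjusted p = 0.00541). The groups did not overlap for either gene, and both passed under all 16 alternatives tried. Of the 31-base sequences of Prps1, 18.5% are also in Prps1l3, a related gene at 588 with itaconate and 692 with NaCl, so RSEM could have divided reads between them.

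Ppat, the amidotransferase that commits PRPP to purines, and Paics, which carries out a carboxylation and the step after it in the ring, are neighbours on chromosome 5 (Ppat at chr5:76913249-76951578 on the minus strand, Paics at chr5:76951307-76967509 on the plus strand, GENCODE release 21 of GRCm38). They are transcribed away from each other, and their starts overlap by 272 exonic bases. Paics had 7110.3, 6827 and 5741 in the itaconate libraries, against 4713, 4227 and 4396 in the NaCl libraries (log2 fold change 0.56 ± 0.096 SE, adjusted p = 7.40e-04). Its itaconate libraries were all above the controls, with replicate 3 the lowest of them. Ppat had 1569, 1288 and 1313 in the itaconate libraries, against 1254, 966 and 909.5 in the NaCl libraries (log2 fold change 0.42 ± 0.13 SE, adjusted p = 0.0241). Its groups were next to each other without overlap, and it no longer passed when NaCl replicate 2 (adjusted p = 0.0939), NaCl replicate 3 (0.106) or itaconate replicate 1 (0.0902) was left out. No strand setting is given in the sources used here, so reads from the shared bases cannot be assigned to one gene or the other, and these make up 6.15% of the exon bases of Ppat and 8.67% of those of Paics.

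Gart, an enzyme with 3 activities that act between Ppat and Paics, had 2069, 1583 and 1623 in the itaconate libraries, against 1453, 1329 and 1367 in the NaCl libraries (log2 fold change 0.34 ± 0.11 SE, adjusted p = 0.0342). Itaconate replicate 1 stood above the other two, and without it the call was lost (log2 fold change 0.21, adjusted p = 0.147), as it was without NaCl replicate 2 (0.108) or 3 (0.0870), or with quantile normalization (0.0521). Of its exon bases 19.7% overlap the antisense gene Gm15964, at 16.9 with itaconate and 21.4 with NaCl. Atic, which closes the ring to IMP, showed the same high itaconate replicate 1 (2569, with 1778 and 1824 in the others) and did not pass (log2 fold change 0.31, 95% interval 0.020 to 0.61, adjusted p = 0.0896). Pfas, which acts between Gart reactions (mean 1182 with itaconate and 1269 with NaCl, −0.10 on the log2 scale, adjusted p = 0.510), and Adsl, which acts after Paics (mean 952 with itaconate and 1039.9 with NaCl, −0.13 on the log2 scale, adjusted p = 0.456), did not pass either. Their intervals, −0.35 to 0.14 for Pfas and −0.42 to 0.15 for Adsl, leave out rises as large as that of Paics.

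IMP dehydrogenase is the rate-limiting step from IMP towards GMP. Impdh2, the form that proliferating lymphocytes induce, had 11548, 10759.7 and 8326 in the itaconate libraries, against 7729, 6608 and 6799 in the NaCl libraries (log2 fold change 0.52 ± 0.12 SE, adjusted p = 0.00382). All itaconate values were above all control values. Impdh1, the more constant form, had 2376, 2567 and 2700.4 in the itaconate libraries, against 2552, 2603 and 2782 in the NaCl libraries (log2 fold change −0.055, 95% interval −0.25 to 0.14, adjusted p = 0.661). The Impdh1 groups overlapped. Gmps, GMP synthetase, had 1989, 1689 and 1713 in the itaconate libraries, against 2663, 2147 and 2031 in the NaCl libraries (log2 fold change −0.34 ± 0.11 SE, adjusted p = 0.0363). It was lower in every itaconate library but by little, and its call was lost without 4 of the 6 libraries taken singly (itaconate replicates 2 and 3, NaCl replicates 1 and 2; adjusted p = 0.0603 to 0.153) and with no filter on low values (0.0526). Adss, which takes IMP towards AMP, did not pass (mean 3118 with itaconate and 2917 with NaCl, 0.10 on the log2 scale, adjusted p = 0.454). Of the 31-base sequences of Impdh2, 43.2% are also in the pseudogene Impdh2-ps, which held 133 normalized estimated counts with itaconate and 75.7 with NaCl.

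**Figure D3:**
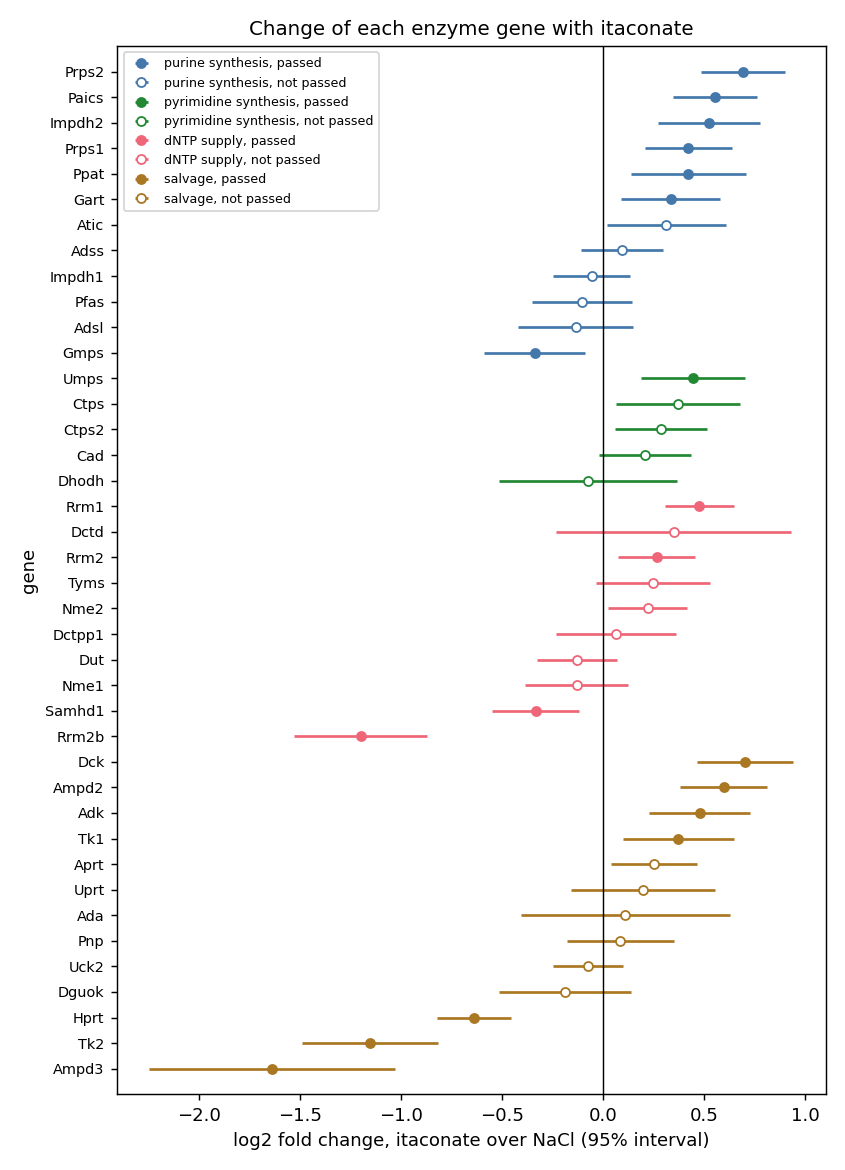
Log2 fold change of itaconate over NaCl for the 40 enzyme genes with 95% intervals from limma (n = 3 libraries per group), coloured by branch. Filled points passed an adjusted p of 0.05 and open points did not. Prps2, Dck and Ampd2 lie farthest right, Ampd3, Rrm2b and Tk2 farthest left.

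In pyrimidine synthesis 1 of 5 genes rose (20%, near the 18.2% of all tested genes), 0 fell (against 17.8%) and 4 did not pass. Umps, which joins orotate to PRPP and decarboxylates it to UMP, had 1270.1, 1006 and 1203 in the itaconate libraries, against 881, 768 and 899 in the NaCl libraries (log2 fold change 0.45 ± 0.12 SE, adjusted p = 0.0106). Its groups were apart, and the call was lost without NaCl replicate 2 (adjusted p = 0.0528). Both CTP synthetase genes lay just outside the threshold. Ctps, the form that T cell expansion depends on, had 1546, 1331 and 1199.8 in the itaconate libraries, against 1301, 916 and 958 in the NaCl libraries (log2 fold change 0.37, 95% interval 0.065 to 0.68, adjusted p = 0.0573). Ctps2 had 1349.6, 1533 and 1417 in the itaconate libraries, against 1302, 1165 and 1062 in the NaCl libraries (log2 fold change 0.29, 95% interval 0.058 to 0.52, adjusted p = 0.0505). The Ctps groups overlapped through NaCl replicate 1, and the Ctps2 groups did not overlap. Ctps2 was the gene nearest to the threshold from outside, as Gmps, with an adjusted p of 0.0363, was from inside. Cad, the trifunctional enzyme that starts the pathway (log2 fold change 0.21, 95% interval −0.017 to 0.43, adjusted p = 0.139), and Dhodh, the mitochondrial dihydroorotate dehydrogenase (log2 fold change −0.075, 95% interval −0.52 to 0.37, adjusted p = 0.804), did not pass. The level of Dhodh was low, 224 ± 51.5 with itaconate and 234 ± 35.7 with NaCl (SD, n = 3), and its sign changed when single libraries were left out.

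Of 10 genes of dNTP supply 2 rose (20%), 2 fell (20%) and 6 did not pass. These shares are near those of all tested genes, 18.2% and 17.8%. The 2 small subunits of ribonucleotide reductase moved in opposite directions. Rrm1, the large subunit common to both forms of the enzyme, had 6149.6, 6081 and 5939 in the itaconate libraries, against 4499, 4138 and 4414 in the NaCl libraries (log2 fold change 0.48 ± 0.078 SE, adjusted p = 5.42e-04). Its values were even within each group, and the groups were far apart. Rrm2, the small subunit of dividing cells, had 3462, 3783 and 3898 in the itaconate libraries, against 3108, 2880.1 and 3279.5 in the NaCl libraries (log2 fold change 0.27 ± 0.088 SE, adjusted p = 0.0324). All its itaconate values were above the controls, but the call was lost without any 1 of itaconate replicates 2 and 3 and NaCl replicates 1 and 2 (adjusted p = 0.0629 to 0.124). Rrm2b, the p53-inducible small subunit that serves cells outside S phase and mitochondrial DNA, had 300.2, 425 and 361 in the itaconate libraries, against 962, 759 and 768 in the NaCl libraries (log2 fold change −1.20 ± 0.15 SE, adjusted p = 8.79e-05). It fell 2.30-fold on the scale of the fit and passed under all 16 alternatives.

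Samhd1, a hydrolase that removes dNTPs and restricts viruses in resting cells, was among the highest of the 40 genes per length. It had 16456, 19591 and 21450.2 in the itaconate libraries, against 24235, 24397 and 23348 in the NaCl libraries (log2 fold change −0.33 ± 0.099 SE, adjusted p = 0.0199). The itaconate libraries differed among themselves by more than the controls did, with replicate 1 the lowest, and the gene did not pass once NaCl replicate 2 (adjusted p = 0.0731), itaconate replicate 2 (0.0513) or itaconate replicate 1 (0.0917) was dropped, or after quantile normalization (0.129). The genes of thymidylate supply did not pass. Tyms, thymidylate synthase, averaged 544 with itaconate and 459 with NaCl (log2 fold change 0.25, 95% interval −0.036 to 0.53, adjusted p = 0.161). Dctd, the deaminase that makes its substrate from dCMP, averaged 132 with itaconate and 102 with NaCl (log2 fold change 0.35, 95% interval −0.23 to 0.93, adjusted p = 0.337). Dut, which breaks down dUTP, averaged 2276 with itaconate and 2487 with NaCl (log2 fold change −0.13, 95% interval −0.33 to 0.071, adjusted p = 0.301). Dctpp1, a pyrophosphatase of dCTP, did not pass (log2 fold change 0.065, 95% interval −0.23 to 0.36, adjusted p = 0.746), and its sign changed without NaCl replicate 2 (−0.029).

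The nucleoside diphosphate kinases Nme1 and Nme2 charge diphosphates to triphosphates. Nme2 had 6581, 6785 and 5754 in the itaconate libraries, against 5689, 5113 and 5575 in the NaCl libraries (log2 fold change 0.22, 95% interval 0.028 to 0.41, adjusted p = 0.0712). Nme1 had 1097, 887 and 861 in the itaconate libraries, against 1100.3, 966 and 1029 in the NaCl libraries (log2 fold change −0.13, 95% interval −0.38 to 0.13, adjusted p = 0.424). Neither gene passed, although the Nme2 groups did not overlap. Of the 31-base sequences of Nme2, 47.9% are also in the read-through entry Gm20390, which spans Nme1 and Nme2 and held 291 with itaconate and 389 with NaCl. How RSEM divided reads among the 3 entries is therefore uncertain.

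Genes of the cell cycle moved beside these values. A list of 40 S phase and DNA replication genes leaves out the enzymes described here. In that list 17 rose (42.5%) and 0 fell, with a median log2 fold change of 0.27. All 24 listed G2/M genes rose, with a median of 1.04. Of all tested genes, 18.2% rose and 17.8% fell. In itaconate replicates 1, 2 and 3, the median of the G2/M list was 1.37, 1.11 and 0.61 above the NaCl mean on the log2 scale. That of the S phase list was 0.30, 0.26 and 0.29. For the enzyme genes it was 0.53, 0.19 and 0.20 in purine synthesis and 0.41, 0.25 and 0.20 in pyrimidine synthesis. It was 0.18, 0.17 and −0.067 in dNTP supply and 0.25, −0.013 and 0.16 in salvage. The part of the share of dividing cells in the changes of the enzyme genes was not tested.

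Salvage held the widest range. Of its 13 genes 4 rose (30.8%, against 18.2% of all tested genes), 3 fell (23.1%, against 17.8%) and 6 did not pass. Deoxynucleoside kinases work in the cytosol (Dck, Tk1) or in mitochondria (Dguok, Tk2). Dck, the cytosolic deoxycytidine kinase, had 1891, 2479 and 2104 in the itaconate libraries, against 1294, 1259 and 1399 in the NaCl libraries (log2 fold change 0.70 ± 0.11 SE, adjusted p = 3.79e-04). Every itaconate library was above every control, with replicate 2 the highest. Tk1, the cytosolic thymidine kinase of S phase, had 1977, 1585 and 1411 in the itaconate libraries, against 1399, 1178 and 1234 in the NaCl libraries (log2 fold change 0.37 ± 0.13 SE, adjusted p = 0.0350). Its itaconate replicate 3 was only a little above NaCl replicate 1, and the call was lost without any 1 of itaconate replicates 1 and 2 and NaCl replicates 2 and 3 (adjusted p = 0.0743 to 0.145). Tk2, the mitochondrial thymidine kinase, had 311, 412 and 465 in the itaconate libraries, against 768, 904 and 946 in the NaCl libraries (log2 fold change −1.15 ± 0.16 SE, adjusted p = 1.33e-04). It fell 2.22-fold on the scale of the fit, with the groups far apart. Dguok, the mitochondrial deoxyguanosine kinase, had 362, 369.5 and 385 in the itaconate libraries, against 364, 407 and 513 in the NaCl libraries (log2 fold change −0.19, 95% interval −0.51 to 0.14, adjusted p = 0.360). Its groups overlapped. Whether Tk2 and Dguok differ in their response was not tested.

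Base salvage went both ways. Hprt, the enzyme that turns hypoxanthine and guanine back into IMP and GMP, had 2402, 2639 and 2441 in the itaconate libraries, against 4058, 3911 and 3672 in the NaCl libraries (log2 fold change −0.64 ± 0.085 SE, adjusted p = 1.26e-04). It fell 1.56-fold, with every itaconate library below every control. Hprt is often used as a reference gene in PCR. Aprt, which does the same for adenine, had 1626, 1646 and 1490.3 in the itaconate libraries, against 1424, 1222 and 1359.7 in the NaCl libraries (log2 fold change 0.25, 95% interval 0.038 to 0.46, adjusted p = 0.0637), and did not pass, although its groups did not overlap. Uprt, a relative of uracil phosphoribosyltransferases, was low and did not pass (mean 245 with itaconate and 215 with NaCl, 0.20 on the log2 scale, adjusted p = 0.376).

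Adenosine handling also had both directions. Adk, adenosine kinase, which returns adenosine to AMP, had 725, 654 and 658 in the itaconate libraries, against 504, 480.2 and 476 in the NaCl libraries (log2 fold change 0.48 ± 0.11 SE, adjusted p = 0.00610). The spread within each group was small beside the difference. AMP deaminase, which turns AMP into IMP, has several forms. Ampd2 had 1929, 1781 and 1585 in the itaconate libraries, against 1174, 1140.2 and 1172 in the NaCl libraries (log2 fold change 0.60 ± 0.0997 SE, adjusted p = 6.00e-04). Ampd3, the form first known from red blood cells, had 58.9, 48.3 and 107 in the itaconate libraries, against 199, 244 and 194 in the NaCl libraries (log2 fold change −1.64 ± 0.28 SE, adjusted p = 7.30e-04). Ampd2 rose while Ampd3 fell 3.11-fold on the scale of the fit, and neither gene's groups overlapped. Itaconate replicate 3 was the mildest library for both genes. Ada, which deaminates adenosine (log2 fold change 0.11, 95% interval −0.41 to 0.63, adjusted p = 0.753), Pnp, purine nucleoside phosphorylase (log2 fold change 0.086, 95% interval −0.18 to 0.35, adjusted p = 0.620), and Uck2, the uridine-cytidine kinase of proliferating cells (log2 fold change −0.074, 95% interval −0.25 to 0.10, adjusted p = 0.501), did not pass. Of the 31-base sequences of Pnp, 26.4% are in other genes, among them its copy Pnp2 and Gm49342.

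The balance between related enzymes was taken as the difference of log2(value + 1) between 2 genes in each library, for 8 pairs. With 3 libraries per group the exact permutation test cannot go below p = 0.10, so no pair could pass, and the values are given with their overlap. For Ampd2 over Ampd3 the log2 ratio was 5.01, 5.17 and 3.88 in the itaconate libraries, against 2.56, 2.22 and 2.59 in the NaCl libraries. The groups were apart by a mean of 2.23 (exact permutation p = 0.10, adjusted p = 0.133, two-sided). For Tk1 over Tk2 it was 2.66, 1.94 and 1.60 in the itaconate libraries, against 0.86, 0.38 and 0.38 in the NaCl libraries. The mean difference was 1.52, with the same p. For Rrm2 over Rrm2b it was 3.52, 3.15 and 3.43 in the itaconate libraries, against 1.69, 1.92 and 2.09 in the NaCl libraries. The mean difference was 1.47, and the groups lay more than 1 apart at their nearest values, again with the smallest p the test allows.

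Dck over Dguok (2.38, 2.74 and 2.45 in the itaconate libraries, against 1.83, 1.63 and 1.45 in the NaCl libraries) and Impdh2 over Impdh1 (2.28, 2.07 and 1.62 in the itaconate libraries, against 1.60, 1.34 and 1.29 in the NaCl libraries) also did not overlap between groups. Their mean differences were 0.89 and 0.58. In the other direction, Nme1 over Nme2 was lower with itaconate (−2.58, −2.93 and −2.74 in the itaconate libraries, against −2.37, −2.40 and −2.44 in the NaCl libraries), a mean difference of −0.35 without overlap. For Prps2 over Prps1 the groups overlapped (−0.41, −0.38 and −0.52 in the itaconate libraries, against −0.92, −0.69 and −0.51 in the NaCl libraries; mean difference 0.27, exact permutation p = 0.20, adjusted p = 0.229), so a larger rise of Prps2 than of Prps1 was not shown. For Ctps over Ctps2 the groups overlapped as well (0.20, −0.20 and −0.24 in the itaconate libraries, against −0.0011, −0.35 and −0.15 in the NaCl libraries; mean difference 0.083, exact permutation p = 0.70, adjusted p = 0.700), and its sign changed without itaconate replicate 1 (−0.056) or NaCl replicate 2 (−0.0076).

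**Figure D4:**
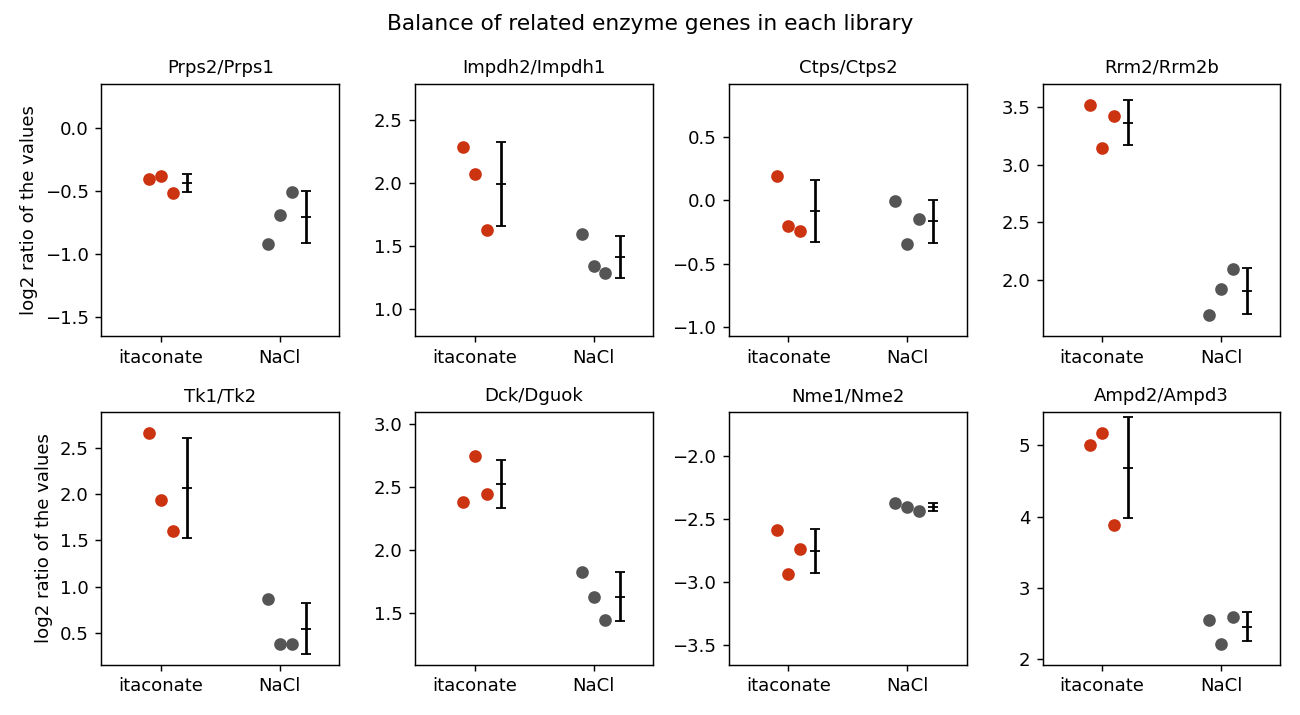
Log2 ratio of the values of 2 related enzymes in each library, for 8 pairs, with itaconate libraries in red and NaCl libraries in grey. Bars are the mean and SD (n = 3), and each panel has its own axis range. The groups are apart in 6 panels and overlap for Prps2/Prps1 and Ctps/Ctps2.

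Levels can be compared between genes only per length, here as normalized estimated counts per kilobase of the principal GENCODE transcript. On that scale the highest of the 40 genes were Nme2 (6298 with itaconate and 5394 with NaCl), Impdh2 (5496 with itaconate and 3792 with NaCl) and Samhd1 (4882 with itaconate and 6111 with NaCl), followed by Paics (2643 with itaconate and 1791 with NaCl) and Hprt (1935 with itaconate and 3010.2 with NaCl). The lowest with itaconate was Ampd3 (17.4 with itaconate and 51.9 with NaCl), the gene with the largest fold change. The lowest with NaCl was Dctd (63.2 with itaconate and 48.5 with NaCl). Rrm2b (79.4 with itaconate and 182 with NaCl) and Tk2 (165 with itaconate and 363 with NaCl) were far below their partners Rrm2 (1694 with itaconate and 1409 with NaCl) and Tk1 (1151 with itaconate and 882 with NaCl).

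As a share of the pair's summed level per kilobase, Tk1 held 91.4%, 86.5% and 83.5% in the itaconate libraries, against 75.3%, 68.5% and 68.5% in the NaCl libraries. Of the 2 small subunits, Rrm2 held 96.0%, 94.9% and 95.7% in the itaconate libraries, against 87.1%, 88.7% and 89.9% in the NaCl libraries. Both were already the main form in NaCl. Of IMP dehydrogenase transcript, Impdh2 held 87.2%, 85.4% and 81.2% in the itaconate libraries, against 80.9%, 78.0% and 77.4% in the NaCl libraries. Dck and Dguok were nearer to balance, and Dck held 65.3%, 70.7% and 66.3% in the itaconate libraries, against 56.1%, 52.7% and 49.5% in the NaCl libraries. The share rests on the lengths used, which need not be those of the transcripts these cells make.

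**Figure D5:**
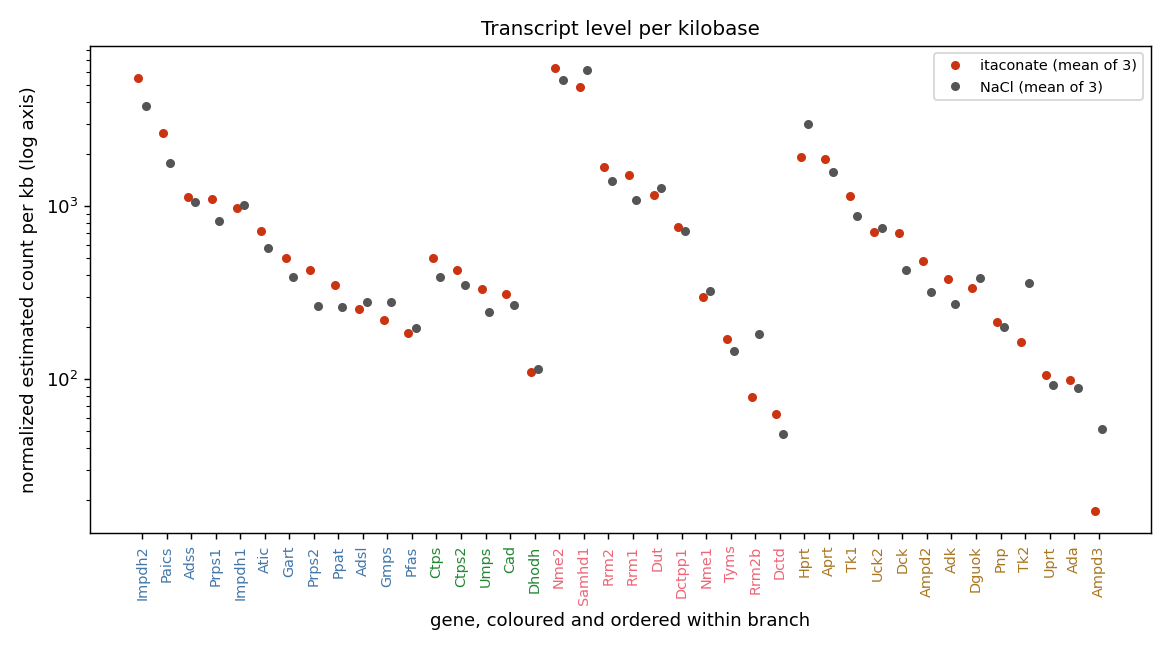
Mean level per kilobase of transcript (log axis) of the 40 enzyme genes, ordered from high to low within each branch, for itaconate (red, mean of 3) and NaCl (grey, mean of 3). Nme2, Impdh2 and Samhd1 are highest. Ampd3 is lowest with itaconate and the most separated between the groups, and Dctd is lowest with NaCl.

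Other genes of nucleotide metabolism were listed by role, with each list read against the 18.2% of all tested genes that rose and the 17.8% that fell. Of 15 tested nucleotide kinases, which lift monophosphates to di- and triphosphates or phosphorylate uridine, 2 rose and 2 fell. Dtymk, the kinase that acts on the product of Tyms and of the thymidine kinases, rose (1093, 1067 and 1077 in the itaconate libraries, against 747, 646 and 749 in the NaCl libraries; log2 fold change 0.60 ± 0.11 SE, adjusted p = 9.15e-04). Uckl1, of the uridine kinase family, rose less (0.35 ± 0.11 SE, adjusted p = 0.0221). Ak4, an adenylate kinase of the mitochondrial matrix, fell (451, 594 and 671 in the itaconate libraries, against 1514, 1430.5 and 1247 in the NaCl libraries; log2 fold change −1.30 ± 0.14 SE, adjusted p = 3.35e-05), as did Nme6 (−1.26 ± 0.25 SE, adjusted p = 0.00200), a mitochondrial member of the NME family. All 3 itaconate libraries had less Ak4 than any control.

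Of 20 tested genes of nucleotidases and breakdown, 3 rose and 7 fell. Nt5e, which encodes CD73, the surface enzyme that releases adenosine from AMP, had the largest change of any gene in the nucleotide lists (895, 1126 and 879 in the itaconate libraries, against 186, 251 and 251 in the NaCl libraries; log2 fold change 2.07 ± 0.16 SE, adjusted p = 2.45e-06). Entpd1, which encodes CD39, the surface enzyme that makes the AMP on which CD73 acts, fell (97.3, 117 and 120.1 in the itaconate libraries, against 223, 193 and 176 in the NaCl libraries; log2 fold change −0.82 ± 0.20 SE, adjusted p = 0.00613). The groups were far apart for Nt5e and apart for Entpd1, in opposite directions. Xdh, xanthine dehydrogenase, which makes uric acid in purine breakdown, rose (301, 314 and 328 in the itaconate libraries, against 189, 107 and 103 in the NaCl libraries; log2 fold change 1.29 ± 0.22 SE, adjusted p = 8.28e-04), and Nt5c3, a pyrimidine nucleotidase, rose by 0.37 ± 0.13 SE. Upp1, uridine phosphorylase (−1.58 ± 0.26 SE, adjusted p = 5.24e-04), Entpd4, a Golgi nucleoside diphosphatase (−0.84 ± 0.13 SE, adjusted p = 3.67e-04), and Nudt5, a hydrolase of ADP-ribose (−0.49 ± 0.11 SE, adjusted p = 0.00367), fell, and Nt5c, Tymp and Nudt1 were the other genes that fell.

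Of 7 tested nucleoside and nucleotide transporters, 3 rose and 2 fell. Slc29a1, the main equilibrative nucleoside carrier of the plasma membrane (1832, 1666 and 1793 in the itaconate libraries, against 1378, 1091 and 1318 in the NaCl libraries; log2 fold change 0.49 ± 0.11 SE, adjusted p = 0.00363), and Slc29a3, of lysosomes (0.49 ± 0.15 SE, adjusted p = 0.0202), rose. Slc25a36 and Slc25a33, the mitochondrial carriers of pyrimidine nucleotides, fell. Slc25a36 had 1799, 2039.7 and 2018 in the itaconate libraries, against 2906, 3442 and 3023 in the NaCl libraries (log2 fold change −0.68 ± 0.096 SE, adjusted p = 1.94e-04), and Slc25a33 changed by −0.79 ± 0.21 SE, adjusted p = 0.0102. Among 5 tested relatives of the enzymes, Adssl1, the muscle form of adenylosuccinate synthetase, rose (395, 357 and 341 in the itaconate libraries, against 113, 100.5 and 209.7 in the NaCl libraries; log2 fold change 1.44 ± 0.24 SE, adjusted p = 6.64e-04), and Prpsap2, which binds PRPP synthetase and restrains it in rat liver, fell (422, 469 and 522 in the itaconate libraries, against 775, 803 and 723 in the NaCl libraries; log2 fold change −0.71 ± 0.12 SE, adjusted p = 8.14e-04). Adal, a relative of adenosine deaminase, fell too (−0.73 ± 0.23 SE, adjusted p = 0.0226).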

How the data were processed

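The authors deposited 1 table with a normalized signal per gene, the estimated count divided by a size factor for each library. The genome was mm10 and the tools included STAR 2.7.0f and RSEM 1.3.0, per the submitters' processing notes. Annotation, size factor tool, filters and strand setting: not given in the sources used here. Size factors and read totals were estimated by taking the most frequent value above 0 in a library as 1 read. Only 80.0% to 82.2% of values were then whole reads (within 0.02), so count models were not used.

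Log2(value + 1) was fitted with limma 3.58.1 in R 4.3.3 (intensity trend, no covariate, two-sided) over the 13180 entries with a mean of at least 10, with Benjamini-Hochberg adjustment over all of them at 0.05. A fold change on this scale understates changes of low genes, and relative values cannot show a shift of all genes. For 107 symbols on several entries the highest kept the symbol. The gene test was tested on simulated data. Values in every library are given for enzyme genes that passed with a log2 fold change of at least 0.3 in size, for the 8 pairs and for the genes nearest the threshold, with up to 4 genes per direction from each other list. A gene that this rule picks is not reported here. Members and lists were chosen with earlier results of these data known. Within a group, libraries differed by more than sampling noise (chi-square per degree of freedom 12.9 to 25.8). Shared sequence was counted as 31-base sequences, both strands, in GENCODE transcripts. Alternatives were pseudocounts of 0.1 and 10, no filter, a mean of at least 100, median-ratio or quantile scaling, a replicate block, no trend, robust variances, each library left out and, chosen after seeing the data, removal of GC content and length trends.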

Additional observations from a re-analysis of the deposited data

How the results depend on the processing

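Over 16 alternatives, 7 of the 13 genes that rose (Prps1, Prps2, Paics, Rrm1, Dck, Adk and Ampd2) and 4 of the 6 that fell (Rrm2b, Tk2, Hprt and Ampd3) passed in each. Impdh2 was lost in 1 (no variance trend, adjusted p = 0.0509) and Umps in 1, whereas Ppat, Gart, Rrm2, Tk1, Gmps and Samhd1 were lost in 4 to 6. Without the variance trend 8 genes rose, and 4 fell. With each library left out, 8 to 17 rose and 4 to 6 fell, and 3478 to 4998 of all tested genes passed. The count of rises was lowest, 8, without NaCl replicate 2, and 17 without itaconate replicate 3. Of the 21 genes that did not pass, 6 passed in some alternative (Atic, Cad, Ctps, Ctps2, Nme2 and Aprt). The sign changed only for genes and pairs that had not passed: Cad with GC content and length trends removed (−0.055), and, over the libraries left out in turn, Dhodh (−0.23 to 0.11, with 0.022 without NaCl replicate 1), Ada (−0.14 to 0.34), Dctpp1 (−0.029 to 0.14) and Ctps/Ctps2 (−0.056 to 0.17, with −0.0076 without NaCl replicate 2). The cause was not tested. The groups share replicate numbers, but same-numbered libraries deviated together with correlations of 0.15, 0.038 and 0.13, so the numbers were not taken as pairs, although each library correlated best with its own number. With the replicate number as a block, 18 genes rose and 6 fell, and 5636 of all tested genes passed. Precision was lowest for the low-level genes Ampd3, Dctd and Ada, whose standard errors were 0.24 to 0.28.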

Other observations

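A group put together after the values were seen, and so without a test, holds 12 tested genes whose products handle nucleotides in mitochondria. Of these, 5 fell (Tk2, Ak4, Nme6, Slc25a33 and Slc25a36), 0 rose and 7 did not pass, Dguok, Dhodh, Cmpk2 and Nt5m among them. The median log2 fold change of the 12 was −0.52. Of all tested genes, 17.8% fell and 18.2% rose. Cmpk2, a mitochondrial UMP and CMP kinase gene that is also induced by interferon, had 27.1, 52.6 and 28.7 in the itaconate libraries, against 57.1, 80.4 and 39.9 in the NaCl libraries (log2 fold change −0.70, 95% interval −1.53 to 0.12, adjusted p = 0.171). Nt5m, the mitochondrial deoxynucleotidase gene, had 264, 205 and 235 in the itaconate libraries, against 371, 261 and 285 in the NaCl libraries (log2 fold change −0.37, 95% interval −0.76 to 0.013, adjusted p = 0.121). The groups overlapped for both genes.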
